A study of Mus musculus with 32 samples.

Results

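The BCL-2 family decides whether a cell under stress opens its mitochondria and dies, and 10 of its genes were followed here in whole mouse bladders across age and treatment with dasatinib and quercetin. They were taken from a table of 32285 genes by their Ensembl identifiers and fall into 5 survival genes (Bcl2, Bcl2l1, Bcl2l2, Mcl1 and Bcl2a1b), 2 pore-forming effectors (Bax and Bak1) and 3 BH3-only genes (Bid, Bcl2l11 and Pmaip1). All 10 passed the filter on low counts in each comparison.

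RNA was sequenced from 32 whole bladders of female C57BL/6 mice, with 1 bladder to a library. The untreated mice formed 3 age groups. There were 6 young mice of 2 months, 5 middle-aged mice of 10 months and 6 old mice of 26 months. Further groups of 26 months had been gavaged with water (n = 5), with the vehicle of Phosal 50 PG, polyethylene glycol and ethanol (n = 4), or with D+Q, which is dasatinib at 5 mg/kg/day plus quercetin at 50 mg/kg/day (n = 6), for 3 consecutive days each month from 21 months on. D+Q is a senolytic pair, chosen in the field to kill senescent cells by lowering their survival signals, and the treated groups ask whether the family's transcripts differ in old bladders after such dosing. Libraries held from 15088372 to 52650259 counted reads. Levels are given as TMM-scaled counts in CPM, or as TPM, which also divides by exon length, wherever genes are compared with each other.

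As background, the survival proteins hold BAX and BAK in check on the mitochondrial outer membrane. BH3-only proteins sense damage and either block the survival proteins or switch on the effectors, which then form pores that let cytochrome c out to start the caspases. Bcl2l1 encodes BCL-XL, Bcl2l2 encodes BCL-W, Bcl2l11 encodes BIM and Pmaip1 encodes NOXA, and senescent cells are known for leaning on some of the survival proteins.

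In mm10, Bcl2 spans chr1:106538178-106714274 (minus strand), Mcl1 chr3:95658788-95663176 (plus strand), Bcl2a1b chr9:89199209-89207827 (plus strand) and Bid chr6:120891930-120916853 (minus strand). The promoters of these 4 are shown, which are the members higher in old than in middle-aged bladders that had a promoter entry. The runs are from RefSeq (GRCm38.p6), 5′ to 3′ on the gene's strand, and stop before the first base that any counted exon covers. Capitals mark GGGCGG, the GC box, or TGANTCA, an AP-1-like motif in which N may be any base, on either strand. They lie at chr1:106714291-106714540 (minus strand) for Bcl2, chr3:95658471-95658720 (plus strand) for Mcl1, chr9:89199023-89199208 (plus strand) for Bcl2a1b and chr6:120916854-120917074 (minus strand) for Bid.
Bcl2: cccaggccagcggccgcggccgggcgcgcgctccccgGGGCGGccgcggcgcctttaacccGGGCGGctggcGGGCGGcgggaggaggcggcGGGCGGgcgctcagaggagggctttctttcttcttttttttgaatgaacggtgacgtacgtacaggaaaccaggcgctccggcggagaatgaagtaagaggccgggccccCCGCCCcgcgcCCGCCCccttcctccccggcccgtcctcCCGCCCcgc
Mcl1: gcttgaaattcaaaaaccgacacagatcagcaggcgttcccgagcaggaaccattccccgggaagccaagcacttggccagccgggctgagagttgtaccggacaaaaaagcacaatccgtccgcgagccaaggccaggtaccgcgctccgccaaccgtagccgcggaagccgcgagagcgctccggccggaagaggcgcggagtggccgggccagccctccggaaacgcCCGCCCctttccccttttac
Bcl2a1b: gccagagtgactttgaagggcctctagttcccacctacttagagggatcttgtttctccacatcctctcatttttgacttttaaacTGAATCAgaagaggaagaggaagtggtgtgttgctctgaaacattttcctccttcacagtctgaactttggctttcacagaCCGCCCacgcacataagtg
Bid: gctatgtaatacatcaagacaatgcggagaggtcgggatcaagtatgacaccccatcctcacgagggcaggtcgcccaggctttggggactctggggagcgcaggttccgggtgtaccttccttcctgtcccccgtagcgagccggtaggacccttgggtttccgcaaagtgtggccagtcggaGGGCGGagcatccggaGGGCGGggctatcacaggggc
The Bcl2 run held 7 GC boxes, Mcl1 had 1, Bid had 2 and Bcl2a1b had 1. In the full windows of 250 bases before the annotated start, GC content was 74.8% for Bcl2, 64.4% for Mcl1 and 63.6% for Bid, against 44.8% for Bcl2a1b and a median of 52.4% over 32851 promoters. A GC box was present in 32.7% of all such windows. The AP-1-like motif TGANTCA, found in 6.75% of all windows, was present as TGAATCA in the Bcl2a1b window and in none of the other 8 members with a promoter entry. No entry was found for Pmaip1.

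Bcl2a1b is 1 of several near-identical A1 genes that lie together on mouse chromosome 9, which bears on its counts. The coding sequences of Bcl2a1a, Bcl2a1b and Bcl2a1d in the GENCODE annotation were each 516 bases long and differed at 12 positions in all. The 120 coding bases from the start codon, which hold 7 of those positions, are shown with the differing bases in capitals (mm10, chr9:88957051-88957170, plus strand, for Bcl2a1a, chr9:89199360-89199479, plus strand, for Bcl2a1b and chr9:88731600-88731719, minus strand, for Bcl2a1d).
Bcl2a1a: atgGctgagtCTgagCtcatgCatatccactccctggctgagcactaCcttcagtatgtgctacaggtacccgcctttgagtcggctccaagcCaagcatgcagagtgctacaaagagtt
Bcl2a1b: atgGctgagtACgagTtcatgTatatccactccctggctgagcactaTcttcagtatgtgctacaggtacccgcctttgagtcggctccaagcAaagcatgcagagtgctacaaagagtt
Bcl2a1d: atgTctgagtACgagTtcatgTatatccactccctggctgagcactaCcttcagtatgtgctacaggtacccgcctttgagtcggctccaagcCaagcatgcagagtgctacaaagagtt
Bcl2a1b shared 97.9% of its coding bases with Bcl2a1a and 98.8% with Bcl2a1d. Of all stretches of 75 bases in the Bcl2a1b transcript, 43.5% were also present, letter for letter, in one of the other transcripts, and 14.2% of stretches of 150 bases were. Counts of Bcl2a1b are therefore uncertain between these genes, and its edgeR log2 fold changes with age and with D+Q are also given for the counts of Bcl2a1a, Bcl2a1b and Bcl2a1d summed.

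Per counted exon length, Mcl1 was the most abundant member in all 6 groups and led by a wide margin. In untreated old bladders its level was 238 ± 10.9 TPM (SD, n = 6), followed by Bax at 98.8 ± 6.36 TPM, Bcl2l2 at 71.5 ± 3.40 TPM, Bcl2l1 at 62.5 ± 5.32 TPM and Bak1 at 44.7 ± 4.09 TPM. Those 5 genes kept this order of mean TPM in every group. The other 5 lay lower and close together, with Bid at 17.7 ± 1.73 TPM, Bcl2a1b at 17.3 ± 4.70 TPM, Bcl2l11 at 16.8 ± 1.12 TPM, Bcl2 at 14.4 ± 0.912 TPM and Pmaip1 at 13.0 ± 0.922 TPM. In untreated old bladders the ranges of TPM of Mcl1, Bax and Bcl2l2 were apart, those of Bcl2l2 and Bcl2l1 overlapped, and so did those of each pair of neighbours from Bid down to Pmaip1. Bcl2, the founding member, thus stood among the lowest in TPM, at 0.146 ± 0.0113 of the TPM of Bax in untreated old bladders (n = 6), 0.113 ± 0.00816 in middle-aged bladders (n = 5) and 0.107 ± 0.0213 in young bladders (n = 6). This rank and ratio rest on the exon length counted, 9157 bases for Bcl2 and 1576 for Bax. In CPM, Bcl2 was at 38.2 in untreated old bladders, beside 45.2 for Bax and 31.2 for Bak1.

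**Figure D1:**
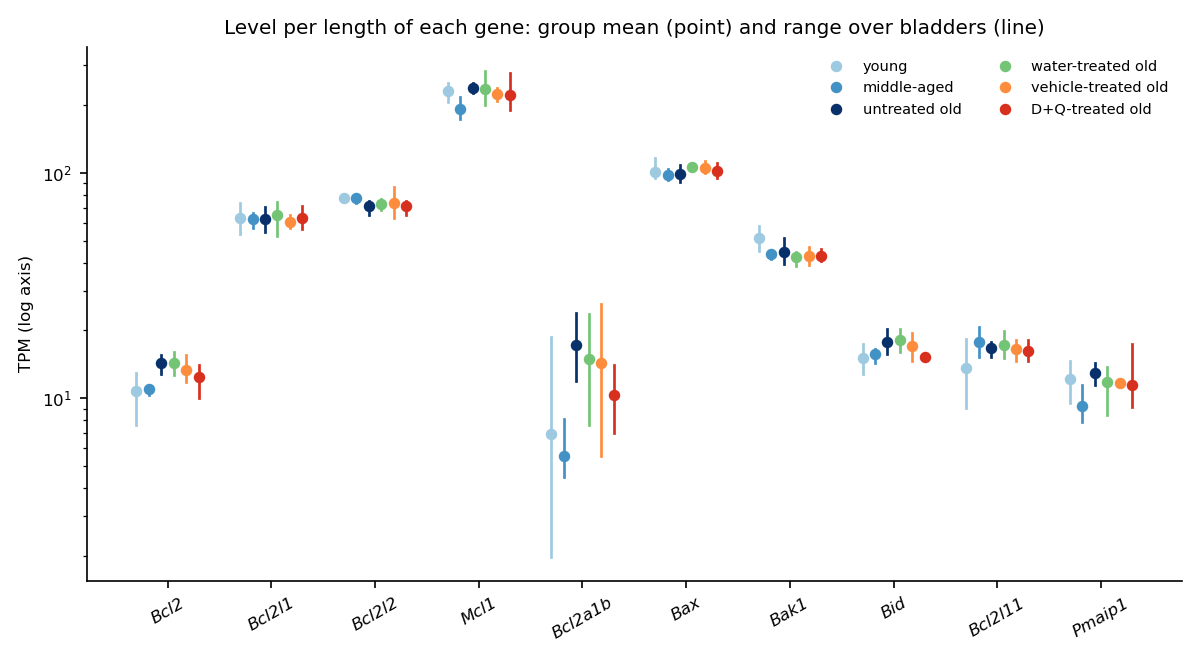
TPM of each gene on a log axis, with a point for the mean of each of the 6 groups and a line from the lowest to the highest bladder. Mcl1 was highest at a mean between 192 and 238 TPM, and the 5 low genes lay at or under 26.3 TPM, which Bcl2a1b reached in a vehicle-treated bladder.

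Between middle-aged and untreated old bladders, 5 of the 10 genes rose and none fell: Bcl2, Mcl1 and Bcl2a1b among the survival genes, and Bid and Pmaip1 among the BH3-only genes. The change was 3.22-fold for Bcl2a1b and between 1.16-fold and 1.45-fold for the other 4. Over all 17156 genes tested, 24.0% passed an adjusted p of 0.05, and 13.0% did so with the higher level in old bladders. The 10 members had a median log2 fold change of 0.14, beside -0.0047 over all genes tested. Neither effector passed the test. The deposited normalized table, tested with limma, gave 1670 genes higher and 2401 lower in old bladders where edgeR gave 2231 and 1879, and of the members it called 4 of the 5, without Bid.

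Bcl2, whose product blocks BAX and BH3-only proteins, rose in old bladders. The 5 middle-aged bladders were at 26.9, 27.9, 28.7, 30.0 and 30.1 CPM, and the 6 untreated old ones ran from 35.3 to 41.0 CPM with a median of 38.3. The groups did not overlap, as was also the case for Mcl1, Bcl2a1b and Pmaip1 and for 15.8% of all genes tested. The log2 fold change was 0.43 (SE 0.04, 95% interval 0.34 to 0.53, adjusted p = 2.55e-05, edgeR). Young bladders ran from 20.4 to 34.1 CPM (median 29.5), below every untreated old bladder, and old against young gave a log2 fold change of 0.44 (SE 0.10, adjusted p = 0.00442). Middle-aged against young gave 0.02 (95% interval -0.20 to 0.24, adjusted p = 0.928). Exons of Bcl2 overlap D630008O14Rik on the other strand. The strand setting used in counting is not given in the sources used here, so it is not known whether reads in the overlapping part were kept apart.

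Mcl1, a short-lived survival protein that NOXA and BIM bind, was lowest in middle age. Young bladders ran from 203 to 249 CPM (median 224), the middle-aged ones were at 170.1, 178, 186, 189 and 212 CPM, and untreated old ones ran from 220.5 to 252 CPM (median 238). Middle-aged bladders were below young ones except for an overlap of 1 middle-aged bladder, and all of them were below the old ones. It fell by 0.27 on the log2 scale from young to middle age (SE 0.07, adjusted p = 0.0221) and was higher by 0.36 from middle age to old age (SE 0.05, 95% interval 0.24 to 0.48, adjusted p = 0.000443). Old against young gave 0.08 (95% interval -0.03 to 0.19, adjusted p = 0.281). Both changes share the middle-aged bladders and are not separate evidence. The fall did not pass without middle-aged replicate 2, 3 or 5, where the log2 fold change was -0.25, -0.24 and -0.26 (adjusted p between 0.0590 and 0.0627).

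Bcl2a1b, a survival gene known mainly from blood cells, showed the largest age difference of the 10. The middle-aged bladders were at 1.05, 1.16, 1.18, 1.19 and 1.90 CPM, from 37 to 58 reads each. Untreated old bladders ran from 2.81 to 5.44 CPM (median 4.03), from 113 to 236 reads. The lowest old bladder lay above the highest middle-aged one, and the log2 fold change was 1.69 (SE 0.21, 95% interval 1.23 to 2.14, adjusted p = 0.000120). With the 3 near-identical genes summed it was 1.44 (adjusted p = 0.000534). Young bladders ran from 0.475 to 4.28 CPM (median 1.14), and young replicate 2, at 4.28 CPM, overlapped the old ones. Old against young gave 1.28 (SE 0.38, 95% interval 0.46 to 2.11, adjusted p = 0.0256), 1.10 with the summed counts (adjusted p = 0.0200) and 1.89 without young replicate 2. That call did not pass when young replicate 1, 5 or 6 or untreated old replicate 2 or 3 was left out, at log2 fold changes between 1.17 and 1.27 and adjusted p between 0.0508 and 0.0557. Middle-aged against young gave -0.39 (adjusted p = 0.592), -0.33 with the summed counts (adjusted p = 0.562), or 0.21 without young replicate 2.

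Most markers of immune cells that could be tested were also higher in old than in middle-aged bladders. All 5 B cell markers were higher in old bladders, and their summed level went from between 3.90 and 10.8 CPM in middle-aged bladders to between 65.7 and 196 CPM in old ones. All 5 T cell markers were higher, from between 5.82 and 7.70 CPM to between 27.1 and 56.5 CPM. Of 6 macrophage markers, 5 were higher, from between 374 and 439 CPM to between 501 and 821 CPM, and Adgre1 was at a log2 fold change of 0.42 (adjusted p = 0.0835). Of 5 neutrophil markers, Csf3r was tested and was higher, and Ly6g had no read in middle-aged bladders. Of 4 plasma cell markers, Jchain, Mzb1 and Derl3 were higher, while Sdc1 did not pass and its log2 fold change was not positive. Their median log2 fold change was 3.83. The summed level of all 4 went from between 357 and 431 CPM to between 449 and 1166 CPM. The part of these cells in the age differences of the family was not tested, and in whole bladders fewer cells of a type and less RNA per cell cannot be told apart. Bladder identity was present in each group, with the 6 urothelial markers summing to between 3496 and 4694 CPM and the 4 smooth muscle markers to between 21343 and 30597 CPM over all 32 bladders. Between middle age and old age 3 of 6 urothelial markers fell, namely Upk1a, Upk2 and Upk3a. So did 1 of 4 smooth muscle markers (Myh11, log2 fold change -0.24), 1 of 3 endothelial markers (Cdh5, -0.19) and 1 of 4 skeletal muscle markers (Ckm, -0.33). The smooth muscle and skeletal muscle lists each had 1 marker with a positive log2 fold change. Of the fibroblast and adipocyte markers, 0 of 4 and 0 of 4 passed.

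Bcl2l1 and Bcl2l2, the abundant survival genes beside Mcl1, did not pass the test at any age step. The level of Bcl2l1 was 82.0 ± 10.4 CPM at 2 months (n = 6), 81.8 ± 7.28 CPM at 10 months (n = 5) and 83.0 ± 4.75 CPM at 26 months untreated (n = 6), and old against middle-aged gave a log2 fold change of 0.05 (95% interval -0.08 to 0.17, adjusted p = 0.606). Bcl2l2 was at 98.0 ± 2.14, 98.4 ± 4.25 and 92.5 ± 2.27 CPM in the same groups. Its log2 fold change was -0.07 for old against middle-aged (95% interval -0.13 to -0.0014, adjusted p = 0.132) and -0.08 for old against young (95% interval -0.14 to -0.01, adjusted p = 0.0728). DESeq2 called the latter lower (adjusted p = 0.0312).

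The effectors Bax and Bak1, which form the pore, were nearly level from middle age on. The level of Bax was 45.3 ± 3.70 CPM at 2 months, 44.0 ± 2.83 CPM at 10 months and 45.2 ± 2.17 CPM at 26 months untreated, and old against young gave a log2 fold change of 0.0024 (95% interval -0.12 to 0.12, adjusted p = 0.982). Bak1 ran from 29.7 to 40.3 CPM in young bladders (median 36.1), stood at 27.4, 28.9, 31.1, 31.3 and 31.5 CPM in middle-aged ones and ran from 29.0 to 35.1 CPM in old ones (median 30.6). Young bladders reached highest and the groups overlapped. Middle-aged against young gave -0.23 (95% interval -0.40 to -0.07, adjusted p = 0.0715), and it passed with DESeq2 (adjusted p = 0.0352), with all 6 groups in a single fit (0.0191) and without young replicate 4 or 5 (0.0322 and 0.0223). Old against young gave -0.17 (adjusted p = 0.134) and passed without young replicate 5 (-0.22, adjusted p = 0.0376). Exons of Bak1 overlap Ggnbp1 on the other strand.

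Bid, which caspase-8 cleaves to carry death receptor signals to mitochondria, rose slightly in old bladders. Middle-aged bladders were at 14.5, 14.7, 16.5, 16.7 and 17.3 CPM, and untreated old ones ran from 16.4 to 20.4 CPM (median 18.0). The groups overlapped, with a log2 fold change of 0.21 (SE 0.07, 95% interval 0.07 to 0.35, adjusted p = 0.0319). Young bladders ran from 13.0 to 17.9 CPM (median 15.2), and old against young gave 0.25 (SE 0.08, adjusted p = 0.0259). Neither call was firm: the one against middle age did not pass without middle-aged replicate 1, 2 or 3 or untreated old replicate 2 or 3 (adjusted p between 0.0514 and 0.0826), and the one against young did not pass without young replicate 1 or 5 or untreated old replicate 2 or 3 (between 0.0507 and 0.0588). Its exons overlap those of Bcl2l13 on the other strand.

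Pmaip1, which frees BAK by taking up MCL-1, had its lowest mean in middle age, as Mcl1 did. Young bladders ran from 7.19 to 11.4 CPM (median 9.54), middle-aged ones were at 6.07, 6.15, 7.13, 7.69 and 9.01 CPM and untreated old ones ran from 9.01 to 11.1 CPM (median 10.5). The highest middle-aged bladder lay just under the lowest old one. Old against middle-aged gave a log2 fold change of 0.54 (SE 0.10, 95% interval 0.32 to 0.76, adjusted p = 0.00216), and old against young gave 0.12 (95% interval -0.14 to 0.37, adjusted p = 0.514). Middle-aged against young gave -0.41 (95% interval -0.72 to -0.10, adjusted p = 0.0870), which did not pass. It did pass with DESeq2 (-0.42, adjusted p = 0.0377), with all 6 groups in a single fit (adjusted p = 0.0463) and without young replicate 5 (-0.48, adjusted p = 0.0359). The ratio of Mcl1 to Pmaip1 in TPM was 19.4 ± 3.95 in young, 21.0 ± 1.91 in middle-aged and 18.3 ± 0.929 in untreated old bladders.

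Bcl2l11, whose product BIM binds all survival proteins and activates BAX, was lowest in young bladders. They ran from 21.4 to 40.7 CPM (median 32.2), while the middle-aged ones were at 35.1, 36.2, 42.4, 43.0 and 46.1 CPM and the untreated old ones ran from 35.6 to 41.3 CPM (median 39.1). The groups overlapped and no comparison passed with edgeR on the groups compared: middle-aged against young gave a log2 fold change of 0.36 (95% interval 0.07 to 0.65, adjusted p = 0.103), and old against young gave 0.32 (95% interval 0.07 to 0.57, adjusted p = 0.0578). Middle-aged against young did pass with all 6 groups in a single fit (adjusted p = 0.0166) and without young replicate 5 (0.45, adjusted p = 0.0338). Old against young did pass with DESeq2 (adjusted p = 0.0310) and with all 6 groups in a single fit (adjusted p = 0.0127). It also passed without young replicate 4 or 5, at 0.36 and 0.41.

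**Figure D2:**
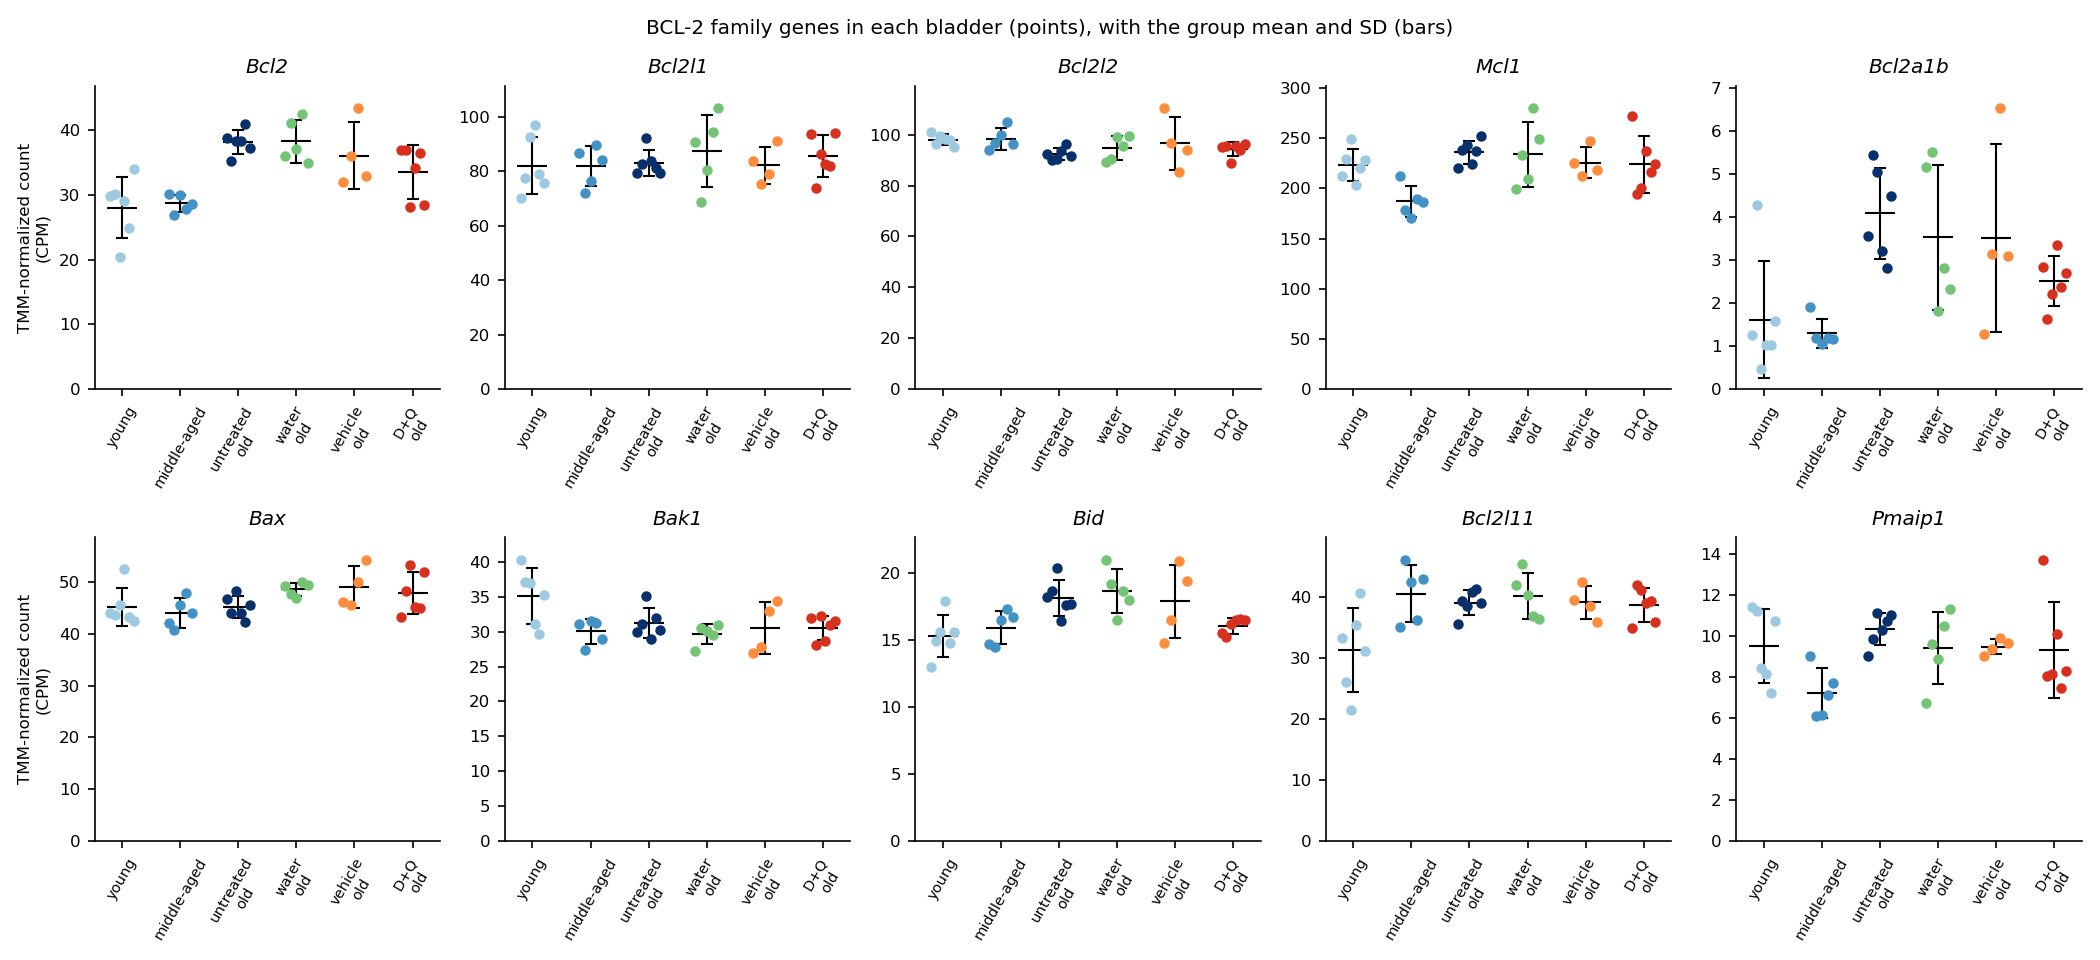
Normalized counts (CPM, linear axes from 0) of the 10 genes in each of the 32 bladders, with the group mean and SD. Untreated old bladders were above every middle-aged bladder for Bcl2, Mcl1, Bcl2a1b and Pmaip1, and D+Q-treated bladders overlapped each old control group for all 10 genes.

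For the other age comparisons, edgeR called a single member, Mcl1, between middle-aged and young bladders, where 10.8% of 16754 genes were called. DESeq2 called Bak1 and Pmaip1 there too, and the fit of all 6 groups called Bak1, Pmaip1 and Bcl2l11 beside Mcl1. In old against young bladders 3 of 10 rose (Bcl2, Bcl2a1b and Bid) and none fell, where 25.1% of 16873 genes were called. At an unadjusted p under 0.05, edgeR placed 1 member lower at 26 than at 10 months and 2 lower at 26 than at 2 months. In either direction 6 of 10 members had such a p in each of these comparisons, beside 35.8% and 36.3% of all genes. DESeq2 called 0 and 1 members lower, among 2040 and 2438 genes that it called lower in all. The 3 age comparisons share groups with each other.

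**Figure D3:**
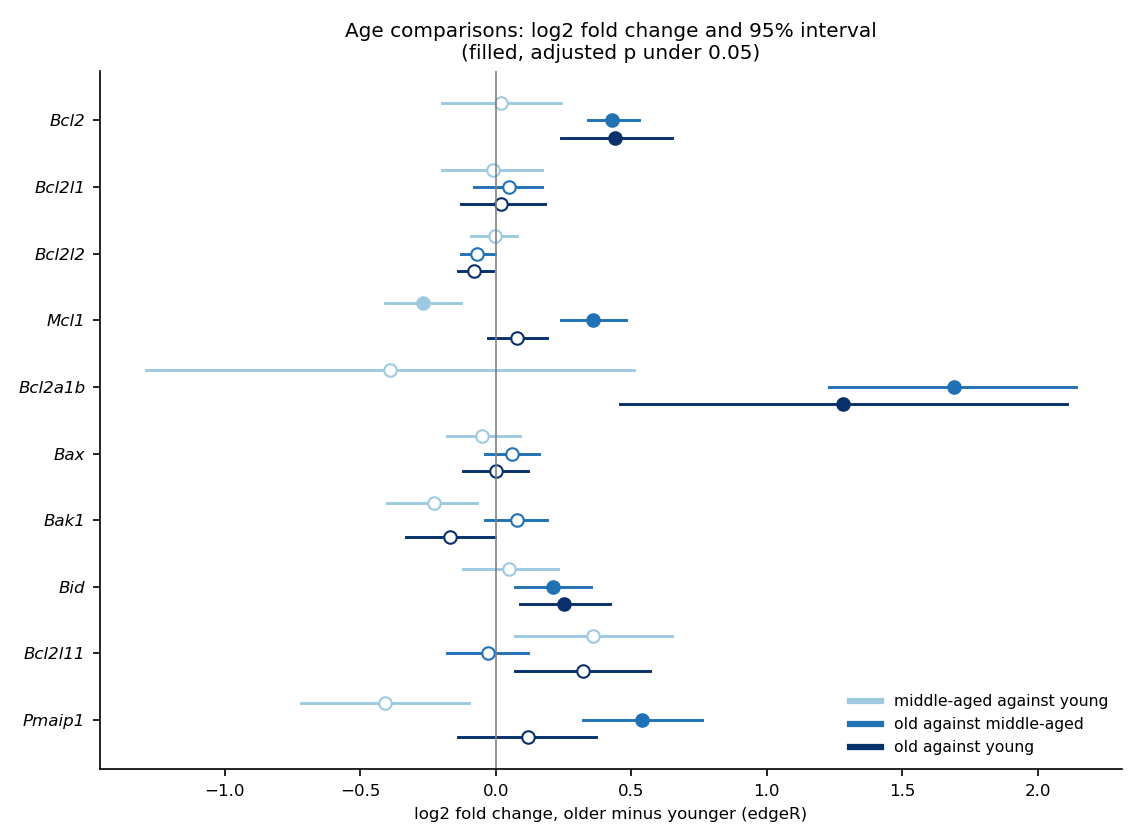
Log2 fold change with its 95% interval for each gene in the 3 age comparisons, older minus younger, filled where the adjusted p was under 0.05. Bcl2a1b stood farthest to the right at 1.69 and 1.28, and Bcl2 was at 0.43 and 0.44 against middle-aged and young bladders.

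D+Q treatment was compared with each old control group, and none of the 10 genes passed in any comparison with edgeR. The called share was 0% of 17037 genes against untreated, 0% of 17161 against water-treated and 0% of 17267 against vehicle-treated old bladders, and 0% of 17893 against the mean of the 3 control groups. At an unadjusted p under 0.05 the counts over all genes were 2200, 1342, 722 and 1373 (12.9%, 7.82%, 4.18% and 7.67%), of which 3, 1, 0 and 2 were members, each lower with D+Q. DESeq2 called 185, 69, 11 and 27 genes and limma called 0 in each. A single member was among them: DESeq2 called Bcl2a1b lower against untreated old bladders (adjusted p = 0.0371), in a comparison where it called 1.18% of 15684 genes. The comparisons share the D+Q bladders, so their values are given side by side.

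Bcl2a1b had its lowest mean of the 4 old groups after D+Q. The 6 D+Q-treated bladders ran from 1.64 to 3.35 CPM (median 2.54). Water-treated ones were at 1.82, 2.33, 2.82, 5.15 and 5.50 CPM and vehicle-treated ones at 1.29, 3.10, 3.13 and 6.52 CPM. The D+Q bladders overlapped both of these groups and the untreated range of 2.81 to 5.44 CPM, and each old control group reached higher than any D+Q bladder. The log2 fold change was -0.70 against untreated (95% interval -1.11 to -0.29, adjusted p = 0.269), -0.46 against water-treated (95% interval -1.09 to 0.16, adjusted p = 0.725) and -0.48 against vehicle-treated bladders (95% interval -1.25 to 0.30, adjusted p = 0.994). Vehicle-treated replicate 3, at 6.52 CPM, set the last value: without it the log2 fold change was 0.02. Summed over the near-identical genes, the values were -0.67, -0.39 and -0.54.

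Marker levels stood beside these values. B cell markers summed to between 30.8 and 118 CPM in D+Q-treated bladders, against 65.7 to 196 CPM in untreated, 35.0 to 312 CPM in water-treated and 38.3 to 345 CPM in vehicle-treated old ones, and T cell markers to between 17.6 and 30.8 CPM, against 27.1 to 56.5, 18.6 to 43.9 and 10.5 to 57.6 CPM. None of these 10 B and T cell markers passed in any D+Q comparison with edgeR or limma. Against untreated old bladders 8 had an unadjusted p under 0.05 with edgeR, and DESeq2 called Cd2, Cd3e and Trac, each a T cell marker. DESeq2 also called Cd3e and Trac between water-treated and untreated old bladders. The T cell list had a median log2 fold change of -0.65, 0.03 and -0.07 for D+Q against untreated, water-treated and vehicle-treated bladders. It was -0.49 with water and -0.58 with vehicle against untreated ones. For the B cell list these values were -0.77, -0.95, -0.91, 0.30 and 0.12. Macrophage markers summed to between 491 and 558 CPM after D+Q, against 501 to 821, 505 to 569 and 453 to 691 CPM. Neutrophil markers summed to between 6.04 and 9.54 CPM, against 5.62 to 13.7, 5.66 to 8.20 and 4.41 to 8.16 CPM. The neutrophil markers that could be tested had a median log2 fold change of 0.55, 1.17 and 0.98 in the same order, with 0, 2 and 2 at an unadjusted p under 0.05, and none of the macrophage or neutrophil markers passed with edgeR. Plasma cell markers summed to between 478 and 802 CPM after D+Q, against 449 to 1166, 478 to 626 and 382 to 862 CPM. Within groups, over the 32 bladders, the r of Bcl2a1b was 0.72 with the macrophage list and 0.72 with the neutrophil list. It was 0.61 with the T cell list, 0.57 with the B cell list and 0.12 with the plasma cell list. With the T cell list r was 0.59 for Bid, 0.47 for Bcl2, 0.21 for Pmaip1, 0.18 for Mcl1 and -0.77 for Bcl2l2. With the macrophage list r was 0.31, 0.36, 0.38, 0.18 and -0.44 in the same order. The part of these cells in the values of Bcl2a1b was not tested.

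Bcl2 and Bid, which were higher with age, had lower means after D+Q without passing. For Bcl2 the D+Q-treated bladders ran from 28.2 to 37.0 CPM (median 35.4), the water-treated ones were at 34.9, 36.0, 37.1, 41.1 and 42.5 CPM and the vehicle-treated ones at 32.1, 32.9, 36.1 and 43.4 CPM. Of the 6 D+Q bladders, 2 stood at 28.2 and 28.5 CPM, below all bladders of the 3 old control groups, and the other 4 overlapped them. The log2 fold change was -0.19 against untreated (95% interval -0.35 to -0.03, adjusted p = 0.342), -0.18 against water-treated (-0.37 to 0.0083, adjusted p = 0.658) and -0.10 against vehicle-treated bladders (-0.35 to 0.14, adjusted p = 0.994).

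For Bid the D+Q-treated bladders were the most uniform, from 15.2 to 16.6 CPM (median 16.3, SD 0.611). Water-treated bladders were at 16.5, 18.0, 18.7, 19.2 and 21.0 CPM and vehicle-treated ones at 14.8, 16.5, 19.4 and 20.9 CPM. The D+Q bladders lay at or under the lower end of the untreated and water-treated ranges. The log2 fold change was -0.18 against untreated (95% interval -0.30 to -0.06, adjusted p = 0.285), -0.21 against water-treated (-0.35 to -0.07, adjusted p = 0.461) and -0.15 against vehicle-treated bladders (-0.36 to 0.06, adjusted p = 0.994).

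The other 7 genes were nearer to 0 in these comparisons. For Bcl2l1, the product most often linked to senescent cell survival, the log2 fold change was 0.04 (95% interval -0.08 to 0.17), -0.02 (-0.22 to 0.18) and 0.06 (-0.11 to 0.23) against untreated, water-treated and vehicle-treated bladders. For Mcl1 it was -0.08 (-0.23 to 0.08), -0.05 (-0.26 to 0.16) and -0.0036 (-0.20 to 0.20), with D+Q-treated bladders from 194 to 272 CPM. Bcl2l2, Bax, Bak1 and Bcl2l11 lay between -0.04 and 0.08 in all 3 comparisons. Pmaip1 was at -0.15, -0.0089 and -0.02, and 1 D+Q bladder stood at 13.7 CPM where the other 5 were between 7.47 and 10.1 CPM. The adjusted p of these 7 genes was 0.532 or more.

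**Figure D4:**
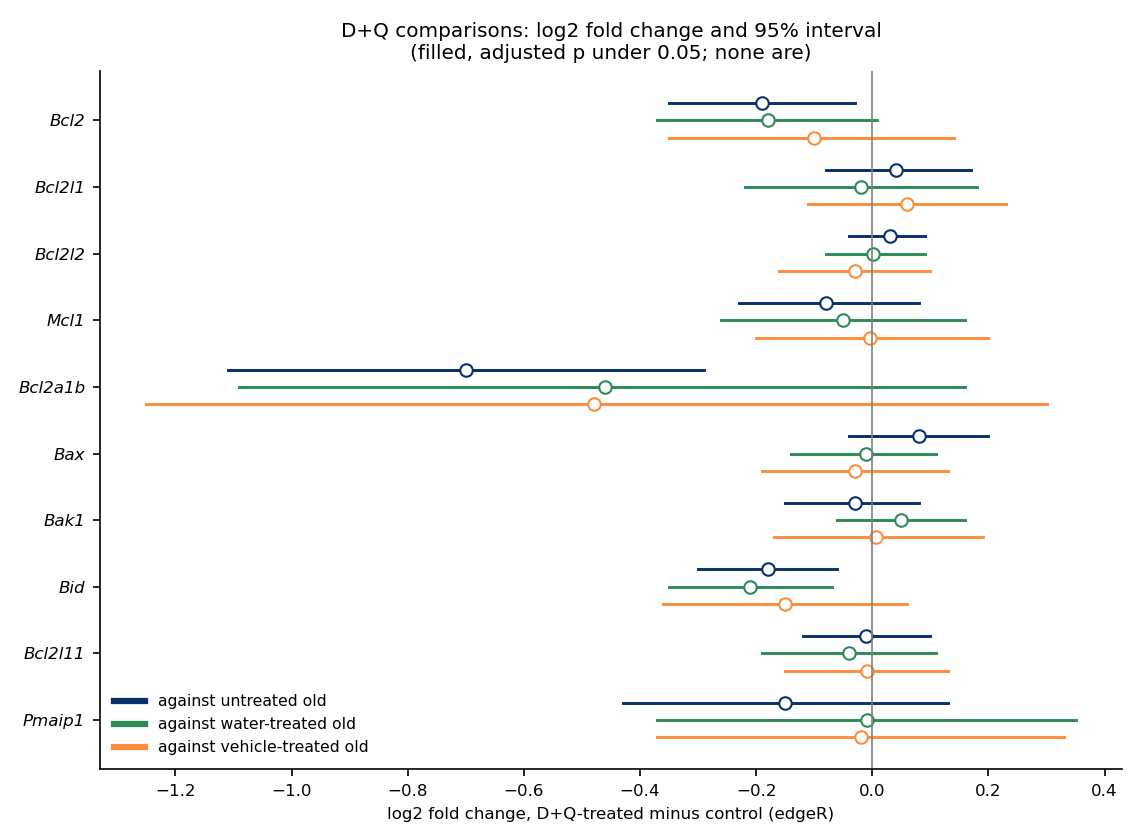
Log2 fold change with its 95% interval for each gene, D+Q-treated minus each old control group, with no filled point. Bcl2a1b had the widest intervals, from -1.25 to 0.30 against vehicle-treated bladders, and all 3 of its estimates were below 0.

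Gavage alone was also examined, and 0 of the 10 genes passed between water-treated and untreated old bladders or between vehicle-treated and untreated old bladders with edgeR, DESeq2 or limma. The called share over all genes was 1.0% of 17250 with water and 0% of 17440 with vehicle. At an unadjusted p under 0.05, water-treated bladders had 1 member, Bax, at a log2 fold change of 0.09 (95% interval 0.0075 to 0.18, adjusted p = 0.277), and vehicle-treated ones had 0, where 2760 of 17250 and 1464 of 17440 genes had such a p. Over all genes, DESeq2 called 703 and 132 in these comparisons.

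The rest of the family and the steps after it were read from lists of 35 further genes. In old against middle-aged bladders 13.0% of all 17156 genes tested passed as higher, and 24.0% passed in either direction. These shares stand beside the counts of each list below. Of the 13 other family members, 11 were tested in old against middle-aged bladders, and with edgeR 1 rose and 3 fell, with a median log2 fold change of 0.04. Bcl2a1d, the neighbour of Bcl2a1b, rose by 1.18 (SE 0.27, adjusted p = 0.00755). Bcl2a1a was at 1.06 (95% interval 0.22 to 1.90, adjusted p = 0.0659). Those that fell were Bok, an effector relative of BAX, at -0.22 (adjusted p = 0.0262), the BH3-only gene Bik at -0.25 (adjusted p = 0.0314) and Bcl2l14 at -0.21 (adjusted p = 0.0264). Bok fell at each age step, from 43.2 ± 4.88 CPM at 2 months (n = 6) to 35.7 ± 3.22 CPM at 10 months (n = 5) and 30.2 ± 2.05 CPM at 26 months (n = 6), and old bladders did not overlap young ones (log2 fold change -0.51, SE 0.07, adjusted p = 0.000250). Bbc3, which encodes PUMA, was at 0.17 (adjusted p = 0.159), Bmf at -0.28 (adjusted p = 0.0537) and Bad at -0.10 (adjusted p = 0.0598). DESeq2 also called Bcl2a1a and Bmf, and limma called Bmf and Bad. Bcl2l15, with at most 31 reads in a bladder of these groups, was at 1.16 (95% interval -0.18 to 2.49, adjusted p = 0.199). Bcl2l10 and Hrk were too low to test.

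Of 9 apoptosome and caspase genes, 2 rose in old against middle-aged bladders and 0 fell, with a median log2 fold change of -0.02. Apaf1, the scaffold that cytochrome c binds, went from between 15.4 and 16.8 CPM to between 18.7 and 22.7 CPM (log2 fold change 0.38, SE 0.06, adjusted p = 0.000381), and Htra2, a mitochondrial protease, was higher by 0.20 (SE 0.06, adjusted p = 0.0246), a call that limma did not make. Both had their lowest mean in middle age. Mean Apaf1 was 20.4, 16.1 and 20.6 CPM in young, middle-aged and untreated old bladders, and mean Htra2 was 23.0, 18.7 and 21.1 CPM. DESeq2, but not edgeR, called both between middle-aged and young bladders. In old against young bladders 0 of the 9 passed with edgeR. Cycs, which encodes cytochrome c, fell from young to middle age by 0.23 (SE 0.06, adjusted p = 0.0284).

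Of 4 genes listed as caspase inhibitors, Birc2, Birc3 and Birc5 rose in old against middle-aged bladders and Xiap did not pass. The list had a median log2 fold change of 0.36. Birc3, a gene induced by NF-kB, went from between 22.3 and 25.8 CPM to between 28.9 and 35.7 CPM (log2 fold change 0.47, SE 0.06, adjusted p = 0.000257), and Birc2 was higher by 0.26 (SE 0.05, adjusted p = 0.00230). Birc5, which encodes survivin and is known mainly from dividing cells, fell by 1.42 from young to middle age (adjusted p = 0.0155) and was higher by 1.47 from middle age to old age (adjusted p = 0.000754). The middle-aged bladders held from 19 to 42 reads of Birc5 each, and both changes share them and are not separate evidence. Old against young did not pass for Birc5, at means of 2.15 and 2.07 CPM. Xiap was at 0.07 (95% interval -0.13 to 0.27).

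Among 9 death receptor genes upstream of Bid, 4 rose in old against middle-aged bladders and 0 fell, with a median log2 fold change of 0.05. Cflar, which encodes the caspase-8 inhibitor FLIP, was higher by 0.19 (SE 0.03, adjusted p = 0.000764) and Casp8 by 0.18 (SE 0.05, adjusted p = 0.0279), though limma did not call Casp8. Mean Casp8 was 29.8, 26.3 and 29.3 CPM in young, middle-aged and untreated old bladders. DESeq2 and limma, but not edgeR, called Casp8 between middle-aged and young bladders. Of the 4 genes, only Fasl was also called higher in old against young bladders with edgeR. Fas was higher by 0.31 (SE 0.09, adjusted p = 0.0215), and its ligand Fasl, known mainly from cytotoxic lymphocytes, by 2.01 (SE 0.50, adjusted p = 0.0118) at levels from 2 to 53 reads a bladder in the groups compared. Tnfrsf1a fell from young to middle age by 0.17 (SE 0.04, adjusted p = 0.0261). Of these 35 genes 0 passed in a D+Q comparison with edgeR, DESeq2 or limma, and edgeR gave 9, 2 and 3 of them an unadjusted p under 0.05 against untreated, water-treated and vehicle-treated old bladders. The genes tested numbered 32, 32 and 33, and 12.9%, 7.82% and 4.18% of all genes had such a p. Cflar was lower in water-treated than in untreated old bladders at -0.16 (SE 0.03, adjusted p = 0.0219) with edgeR, also with DESeq2 but not with limma.

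**Figure D5:**
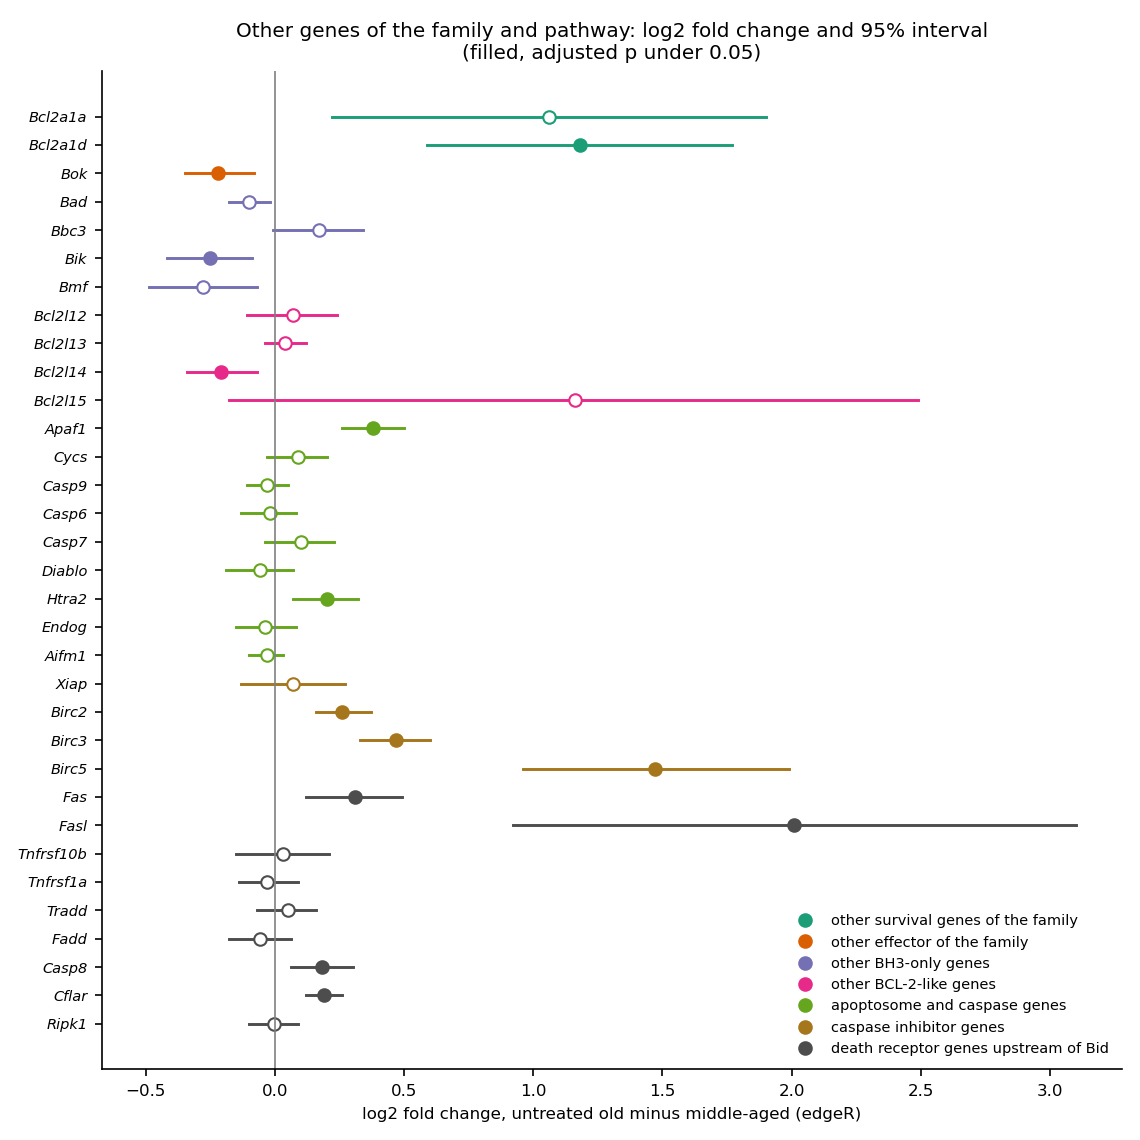
Log2 fold change with its 95% interval for the other genes of the family and pathway that could be tested, untreated old minus middle-aged bladders, coloured by list and filled where the adjusted p was under 0.05. Fasl, Birc5 and Bcl2a1d lay farthest right at 2.01, 1.47 and 1.18, and Bok, Bik and Bcl2l14 were the filled points below 0.

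As a description, the genes whose level varied most like each member were named from Pearson's r of log2(CPM + 0.5) over the 32 bladders, after subtracting the mean of each of the 6 groups, among 15054 genes with a mean of at least 1 CPM. The bladders share library depth and cell makeup across genes. Bcl2a1b was closest to Laptm5 (r = 0.90), Itgb2 (0.89) and Myo1f (0.89). For Bcl2 the closest were Ap5b1 (0.79), Gm15559 (0.73) and Gm5431 (0.73), for Bcl2l2 Fzd1 (0.81), Prkab2 (0.80) and Brsk1 (0.79), and for Mcl1 Fam107b (0.79), Adamts1 (0.77) and Jun (0.76). Genes close to Bcl2l1 included Tdrp (0.84) and Pparg (0.83). For the effectors they were Map2k2 (0.85), Yipf3 (0.83) and Ndufb7 (0.83) with Bax, and Lsp1 (0.81), Tagln2 (0.79) and Ly6a (0.77) with Bak1. Bid was closest to Ctsa (0.82), Skiv2l (0.82) and Epn1 (0.80), and Pmaip1 to Peli1 (0.77), Ppp1r15b (0.75) and Cebpg (0.73). Bcl2l11 was closest to another BH3-only gene, Bmf (0.85), then to Gm17249 (0.80) and Hoxa6 (0.79).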

How the data were processed

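The authors sequenced total RNA of whole bladders (TruSeq Stranded Total RNA kit), aligned reads to mm10 with STAR 2.7.3 and counted them per gene with featureCounts of Subread. The deposited count table holds whole-number counts and, per the file headers, exon length. The strand setting is not given in the sources used here. The authors also deposited a log2 table, which matched log2 of (count + 1) per exon length scaled to a sum of 100000 per bladder. Symbols were matched for 32158 of 32285 identifiers. Pairs of groups were compared with edgeR 4.0.16 (quasi-likelihood test, TMM factors, default expression filter, Benjamini-Hochberg adjustment over all genes tested, threshold 0.05), in R 4.3.3, and D+Q with the mean of the 3 old control groups in a fit of the 4 old groups. CPM and TPM were computed from the counts. The test was checked on simulated data. Each library is 1 bladder, so the tests weigh group differences against the spread between bladders. The SE was the absolute log2 fold change over the square root of the F statistic of the edgeR test. Intervals used the degrees of freedom of that test. Of 71 pairs of bladders within groups, 0 had identical counts.

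Alternatives were DESeq2 1.42.0, upper-quartile factors, no filter, at least 10 counts in every bladder, a fit of all 6 groups, the replicate number as a block, limma 3.58.1 on the deposited log2 table, and leaving out each bladder. Summing the counts of Bcl2a1a, Bcl2a1b and Bcl2a1d was added after seeing the data. The members and gene lists were chosen with earlier results of these data known. The 10 members are named in full, and of each other list the genes past the threshold and up to 4 with the largest change. A listed pathway gene and a gene whose level varied like Bcl2l1 are not reported here. Sequences came from RefSeq (GRCm38.p6) and GENCODE M21 (mm10).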

Additional observations from a re-analysis of the deposited data

Results flagged for a closer look

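In 5 of 60 sets of a gene and a group, 1 bladder stood farther from the others than Dixon's test at 95% allows, where about 3 would by chance. Bcl2a1b was at 4.28 CPM in young replicate 2, against 0.475 to 1.59 CPM in the other young bladders, and at 1.90 CPM in middle-aged replicate 1, against 1.05 to 1.19 CPM. Bcl2l1 was at 92.1 CPM in untreated old replicate 3, against 79.2 to 83.6 CPM. Bcl2l2 was at 88.8 CPM in D+Q-treated replicate 3, against 93.8 to 96.4 CPM. Bax was at 52.5 CPM in young replicate 4, against 42.5 to 45.6 CPM.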

How the results depend on the processing

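The 5 genes higher in old than in middle-aged bladders numbered 4 or 5 under each alternative, with Bid the gene lost, and 0 members were called in the comparisons of D+Q with water or vehicle under any. Counts of members moved elsewhere. Between middle-aged and young bladders, members called lower went from 1 to 3 with DESeq2 and to 3 in the fit of all 6 groups, and those called higher from 0 to 1 in that fit. With 1 bladder left out these counts ran from 0 to 3 and from 0 to 1. In old against young bladders the count called higher ran from 1 to 4 with 1 bladder left out, and the count called lower from 0 to 1, as with DESeq2, which gave 1. DESeq2 also called 1 member lower with D+Q than in untreated old bladders. The cause was not tested.

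Of 90 log2 fold changes of members, 39 changed sign under an alternative, 38 of them with 1 bladder left out and 12 under another setting. None of these 39 was called by edgeR, and none of the values of changed sign was called. With 1 bladder left out, values crossed 0 in middle-aged against young bladders for Bcl2 (-0.05 to 0.08), Bcl2l1 (-0.06 to 0.04), Bcl2l2 (-0.02 to 0.0094) and Bcl2a1b (-0.57 to 0.21), in old against young for Bcl2l1 (-0.02 to 0.08) and Bax (-0.02 to 0.05), and in old against middle-aged for Bcl2l11 (-0.08 to 0.02). They did so in D+Q against untreated for Bak1 (-0.05 to 0.0050) and Bcl2l11 (-0.04 to 0.01). In D+Q against water it was Bcl2l1 (-0.10 to 0.04), Bcl2l2 (-0.02 to 0.02), Mcl1 (-0.12 to 0.02), Bax (-0.05 to 0.01), Bcl2l11 (-0.08 to 0.0049) and Pmaip1 (-0.15 to 0.06). In D+Q against vehicle it was Bcl2l2 (-0.08 to 0.03), Mcl1 (-0.07 to 0.04), Bcl2a1b (-0.76 to 0.02), Bax (-0.07 to 0.02), Bak1 (-0.06 to 0.07), Bcl2l11 (-0.05 to 0.03) and Pmaip1 (-0.17 to 0.03), and against the mean of the 3 control groups Bcl2l1 (-0.0034 to 0.06), Bcl2l2 (-0.02 to 0.02), Bax (-0.02 to 0.04), Bak1 (-0.01 to 0.03) and Bcl2l11 (-0.05 to 0.0042). In water against untreated it was Bcl2 (-0.04 to 0.03), Bcl2l1 (-0.0011 to 0.13), Mcl1 (-0.09 to 0.02), Bid (-0.02 to 0.08) and Bcl2l11 (-0.02 to 0.06), and in vehicle against untreated Bcl2l1 (-0.08 to 0.02), Bcl2l2 (-0.0088 to 0.11), Bcl2a1b (-0.72 to 0.06), Bak1 (-0.11 to 0.02), Bid (-0.11 to 0.06) and Bcl2l11 (-0.05 to 0.02).

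Under other settings the changed values lay within 0.06 of 0. With limma they were -0.0001 for Bcl2l1 and -0.03 for Bax in old against young, 0.0032 for Bcl2l2 in middle-aged against young, -0.0029 and -0.03 for Bcl2l2 in D+Q against untreated and water, and -0.01 for Bax and for Bak1 in D+Q against the mean of the controls. Bcl2l2 was at -0.0038 with DESeq2 and -0.0021 with at least 10 counts in D+Q against water, at 0.0038 with upper-quartile factors in middle-aged against young, and at 0.0006 with those factors, 0.0004 with no filter and 0.0023 in the fit of all 6 groups in D+Q against the mean of the controls. With the replicate block, D+Q against vehicle gave 0.0004 for Mcl1, 0.01 for Bcl2l11 and 0.06 for Pmaip1, D+Q against water gave -0.0034 for Bcl2l2, and vehicle against untreated gave 0.01 for Bcl2l11.

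Over all genes, the 1811 calls between middle-aged and young became 2858 in the fit of all 6 groups, and the 4110 between old and middle-aged became 2519. The 173 calls between water-treated and untreated old bladders became 703 with DESeq2, 99 with no filter and 0 in the fit of all 6 groups or with limma. The fit of all 6 groups called 15 genes for D+Q against the mean of the 3 old control groups.

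The replicate number used as a block took the members called lower between middle-aged and young from 1 to 0 (Mcl1, adjusted p = 0.0909) and all genes called there from 1811 to 716. It also lost Bid in both comparisons of old bladders and gained Bcl2l11 in old against young (adjusted p = 0.0350). Same-numbered bladders correlated between -0.294 and 0.154 in their deviations from the group means. The best match had the same number in 3 of 5 pairs for middle-aged against young and for old against middle-aged. It did so in 3 of 6 pairs for old against young and in 0 or 1 pair in each comparison of old groups. For some middle-aged, water-treated and vehicle-treated bladders the replicate number differed from the bladder number given with the counts. A block by bladder number was not tested. Low counts limit Bcl2a1b, with as few as 7 reads in a young bladder. Intervals reflect spread between 4 to 6 bladders a group.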
